A study of Homo sapiens with 20 samples.

Results

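The 10 transcripts described here encode feedback inhibitors of mitogen-activated protein kinase (MAPK) signalling: the dual-specificity phosphatases DUSP1, DUSP2, DUSP4, DUSP5, DUSP6, DUSP8, DUSP10 and DUSP16, and the Sprouty proteins SPRY2 and SPRY4. They were taken by gene symbol from a fixed list of 10 names, and all 10 were listed at both times, among 15531 genes in all. RNA sequencing was done on HCT116 cells, a human colorectal carcinoma line, after 5 h or 12 h with chetomin, chaetocin, MeS-chetomin or MeS-chaetocin at 500 nM, or with DMSO vehicle at 0.5%. Chetomin and chaetocin are made by fungi and carry disulfide bridges. Their MeS analogs are described in the labels as depleted of sulfide. Each of the 10 groups of compound and time had 2 libraries, which the labels call biological replicates of this 1 cell line. The series' title names chaetocin as a modulator of metal response genes, and the MAPK inhibitors are other genes measured in the same libraries.

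MAPK phosphatases remove phosphate from both the threonine and the tyrosine of the activation loop of ERK, JNK or p38 kinases, which switches the kinase off. Many of them are themselves targets of the pathway they restrain, so their transcripts are widely read as a gauge of MAPK activity, and they differ in where in the cell they act and which kinase they prefer. Sprouty proteins act further up, between receptor tyrosine kinases and RAF, and are likewise induced by ERK signalling. In carcinoma cells DUSP6 and the Sprouty genes are commonly used as readouts of ERK output.

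The promoters of 4 members are shown because these genes had the largest differences from DMSO in opposite directions with the intact compounds at 12 h: DUSP2, DUSP1 and DUSP8, which stood higher, and DUSP6, which stood lower. DUSP4, DUSP5 and SPRY2, which had larger differences than some of these at 5 h, are not shown. Each window runs from 250 bases before to 50 bases after the transcription start, from RefSeq (GRCh38.p14), written 5′ to 3′ on the strand of the gene, here always the minus strand. Capitals mark the core TGACG of the cAMP response element (or CGTCA, its reverse complement), to which CREB and ATF factors bind, and the TATA box TATAAA.
DUSP2, chr2:96145391-96145690: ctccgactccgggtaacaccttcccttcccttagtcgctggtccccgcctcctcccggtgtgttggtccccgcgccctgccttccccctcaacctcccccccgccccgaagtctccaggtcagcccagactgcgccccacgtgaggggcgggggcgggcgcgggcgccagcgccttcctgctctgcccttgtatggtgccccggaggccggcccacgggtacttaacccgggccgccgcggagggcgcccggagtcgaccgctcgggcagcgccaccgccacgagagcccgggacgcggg
DUSP1, chr5:172771146-172771445: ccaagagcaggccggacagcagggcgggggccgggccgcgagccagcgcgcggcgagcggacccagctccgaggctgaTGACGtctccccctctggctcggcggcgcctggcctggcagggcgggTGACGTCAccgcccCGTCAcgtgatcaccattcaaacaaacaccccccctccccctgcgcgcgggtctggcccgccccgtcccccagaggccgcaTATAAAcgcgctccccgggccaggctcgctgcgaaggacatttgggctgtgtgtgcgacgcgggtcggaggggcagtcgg
DUSP8, chr11:1572222-1572521: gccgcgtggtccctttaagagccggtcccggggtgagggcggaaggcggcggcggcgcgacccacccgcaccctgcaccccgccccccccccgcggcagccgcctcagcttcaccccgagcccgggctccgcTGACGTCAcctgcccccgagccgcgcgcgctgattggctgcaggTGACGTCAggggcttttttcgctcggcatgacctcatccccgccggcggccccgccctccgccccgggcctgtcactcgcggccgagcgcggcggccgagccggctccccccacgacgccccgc
DUSP6, chr12:89352452-89352751: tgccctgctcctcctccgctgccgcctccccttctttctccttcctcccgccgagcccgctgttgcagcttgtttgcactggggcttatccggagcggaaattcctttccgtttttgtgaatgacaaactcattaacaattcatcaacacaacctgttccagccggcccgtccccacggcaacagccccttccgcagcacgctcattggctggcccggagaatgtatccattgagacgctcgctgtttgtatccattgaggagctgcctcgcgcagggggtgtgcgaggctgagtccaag

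The full palindrome TGACGTCA stood in the DUSP1 window with its first base at -125, and in the DUSP8 window at -118 and again at -74, counted from the start site. Of 35116 RefSeq promoter windows of this length, 1.848% hold it. The core TGACG, searched on both strands and overlapping the palindrome, also stood in a window of SPRY4, SPRY2 and DUSP10, and 24.553% of all windows hold it. DUSP1 alone among the 8 members with a window had TATAAA, at -30 (11.53% of all windows). DUSP2 had neither. The core of a metal response element in the form with G, TGCGCNC, stood in the windows of DUSP2 at -120, DUSP1 at -70, DUSP16 at -181 and SPRY2 at -130 and 20, and in 19.968% of all windows. Its form with A, TGCACNC, stood in the DUSP8 window at -177 (12.069% of all windows). The antioxidant response core TGACNNNGC stood in a window of DUSP1, DUSP10 and SPRY4 (13.347% of all windows). The cAMP response core, the metal response core with G and the antioxidant core were each found both in DUSP1, which stood higher, and in a Sprouty gene, which stood lower. None of the 11 windows of these 8 members held TGANTCA (the AP-1 site, in 7.709% of all windows), GAANNTTC (a heat shock unit, 6.769%), CCGGAAG (an ETS site, 10.26%) or a CArG box (1.293%). Such matches describe letters in a window and say nothing of which factor was bound in these cells.

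The tables give 1 normalized value per library and gene, which is corrected for transcript length, so levels can be set side by side between genes. They hold no read counts, so no counting error can be given, and the number of libraries limits the precision. All differences below are differences of log2(value + 1), compound minus DMSO unless stated, with standard errors and Benjamini-Hochberg adjusted p-values over all genes from limma, and "called" means an adjusted p under 0.05. The chetomin and chaetocin comparisons at a time share the same DMSO libraries and are given side by side only. The median difference of all genes was -0.08 for chetomin and -0.09 for chaetocin at 5 h, and -0.15 and -0.16 at 12 h. On the scale of the authors' mean CPM the same medians were 0.03, 0.04, 0.05 and 0.07, so differences near those shifts depend on the scale. One library, DMSO replicate 1 at 5 h, stood apart, with 20.3% of its summed value in 10 genes against 9.42% to 17.3% in the others. The replicates of MeS-chaetocin at 5 h were least alike, with a Pearson r of 0.970 over genes against 0.983 to 0.994 in the other groups. The epithelial markers EPCAM, KRT8, KRT18, KRT19 and CDH1 were expressed in every library, and CDH17 and VIL1 were not listed. Of 10 markers of leukocytes, endothelium, fibroblasts and hepatocytes, PTPRC, CD3E, LYZ, COL1A2 and DCN were not listed at either time. The summed value of those that were listed ran at 5 h from 7.06 to 9.55 with the intact compounds and from 2.70 to 7.85 with the MeS analogs, and was 1.62 and 3.06 with DMSO. The 12 h sum ran from 16.1 to 20.8 with the intact compounds and from 8.99 to 15.5 with the analogs, and was 6.86 and 10.6 with DMSO. The part of this difference in the results below was not tested. As in any bulk sample, fewer cells with a transcript and less of it per cell cannot be told apart.

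The 10 inhibitors did not move as a block. DUSP2 was called higher, and DUSP4 and SPRY2 lower, with both intact compounds at both times. DUSP1 and DUSP8 were called higher with chetomin at both times and with chaetocin at 12 h, DUSP6 and SPRY4 lower with both at 12 h, DUSP5 lower with both at 5 h and with chaetocin at 12 h, DUSP16 rose with chaetocin at 12 h, and DUSP10 was called against DMSO in no comparison. With chetomin at 5 h, 3 of the 10 rose and 3 fell, where 15.7% of all 14219 genes tested were called, 7.02% as higher and 8.71% as lower. With chaetocin at 5 h, 1 rose and 3 fell, against 11.1% of 14217 genes, 4.56% higher and 6.53% lower. With chetomin at 12 h, 3 rose and 4 fell, against 35.8% of 15381 genes, 15.6% higher and 20.2% lower. With chaetocin at 12 h, 4 rose and 5 fell, against 47% of 15377 genes, 20.2% higher and 26.8% lower. On the authors' CPM scale the share of calls that were higher was 58.9% in place of 44.6% with chetomin and 56.4% in place of 41.1% with chaetocin at 5 h, and 66.5% in place of 43.6% and 61.7% in place of 42.9% at 12 h. These counts rest on both libraries of a compound: without 1 of them, 1 member was called with chetomin and 2 with chaetocin at 5 h, and 2 with chetomin and 2 or 4 with chaetocin at 12 h. At 12 h a large share of all genes was called, so a call there sets a member less apart than one at 5 h. The median difference of the 10 members was -0.06 with chetomin and -0.27 with chaetocin at 5 h, and -0.27 with chetomin and -0.19 with chaetocin at 12 h, against medians over all genes of -0.08, -0.09, -0.15 and -0.16 in the same order.

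**Figure D1:**
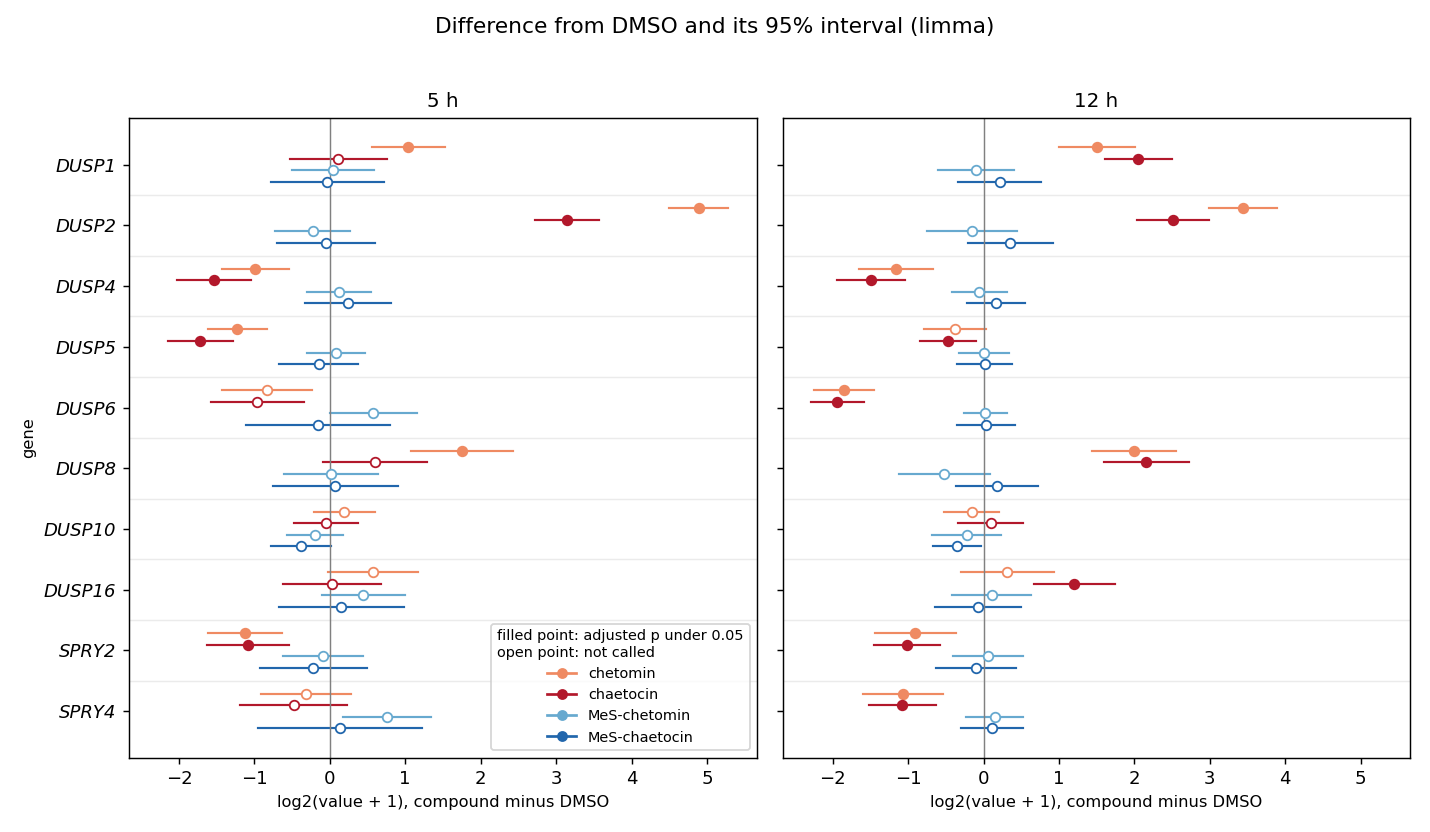
Difference of log2(value + 1) between each compound and DMSO for the 10 members at 5 h (left) and 12 h (right), with 95% intervals from limma; filled points have an adjusted p under 0.05. Chetomin and chaetocin points spread to both sides of 0, with DUSP2 farthest to the right, while every point of the MeS compounds is open.

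The phosphatases of the nucleus are the inducible ones, made early after a stimulus and acting on nuclear MAPKs. DUSP2 (PAC-1), known from activated lymphocytes and directed at ERK and p38, changed most. DUSP2 (ENSG00000158050, chr2:96143166-96145440) had values of 480.4 and 539 with chetomin and 139.8 and 163 with chaetocin at 5 h, against 18.0 and 14.5 with DMSO. Values at 12 h were 108 and 102 with chetomin and 59.3 and 50.1 with chaetocin, against 7.50 and 10.1 with DMSO. No library of an intact compound came near a DMSO library, and every chetomin library lay above every chaetocin library of the same time. The mean at 5 h was 31.3 times that of DMSO with chetomin and 9.31 times with chaetocin, and at 12 h it was 11.9 times and 6.21 times. On the log2 scale DUSP2 rose by 4.89 ± 0.17 with chetomin at 5 h (SE, n = 2 libraries per group, limma adjusted p = 1.67e-05) and by 3.15 ± 0.18 with chaetocin (adjusted p = 0.00135). At 12 h it rose by 3.44 ± 0.20 with chetomin (adjusted p = 5.13e-05) and by 2.51 ± 0.20 with chaetocin (adjusted p = 0.000556). Leaving out any 1 library kept all 4 calls, with adjusted p-values of at most 0.0431.

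DUSP2 was the 1 member called between the intact compounds, which does not show that the other members responded alike. It was higher with chetomin than with chaetocin by 1.75 ± 0.16 at 5 h (adjusted p = 0.00625) and by 0.93 ± 0.17 at 12 h (adjusted p = 0.0216), where 0.767% of 14220 genes (0.64% higher, 0.127% lower) and 4.67% of 15381 genes (1.27% higher, 3.4% lower) were called. The direction held in all 4 pairs of libraries at each time. Both calls rest on both replicates: at 5 h the adjusted p became 0.053, 0.0616 and 0.0725 without chaetocin replicate 1, chetomin replicate 1 and chetomin replicate 2, and at 12 h it became 0.0998 to 0.173 without any 1 library of either compound. The chetomin effect on DUSP2 was smaller at 12 h, 3.44, than at 5 h, 4.89, a difference of -1.45 ± 0.25 (adjusted p = 0.0473, where 0.497% of 14072 genes were called, 0.327% higher and 0.171% lower). That call was lost when DMSO replicate 1 at 5 h was left out (adjusted p = 0.0626), when DMSO replicate 2 at 12 h was left out (0.124) and without any 1 chetomin library (0.109 to 0.178). It was also lost with a pseudocount of 0.1 (0.0773), with median-of-ratios scaling (0.0666), on the authors' CPM scale (0.0574) and with the replicate number as a block (0.0827). For chaetocin the effect was 2.51 at 12 h and 3.15 at 5 h, a difference of -0.63 ± 0.28 that was not called (adjusted p = 0.23).

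DUSP2 also dominated the summed value of the family. It made up 83.4% and 85.9% of the summed value of the 10 members with chetomin at 5 h and 68.8% and 72.5% with chaetocin, against 13.2% and 8.83% with DMSO, where DUSP5 was the most abundant member. At 12 h its share was 50.5% and 49.7% with chetomin and 32.3% and 30.9% with chaetocin, against 4.82% and 6.23% with DMSO, where DUSP6 came first. The summed value of all 10 was 576 and 628 with chetomin and 203 and 225 with chaetocin at 5 h, against 137 and 165 with DMSO. At 12 h it was 214 and 204 with chetomin and 183 and 162 with chaetocin, against 156 and 162 with DMSO, so the chaetocin and DMSO totals overlapped while their makeup did not.

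**Figure D2:**
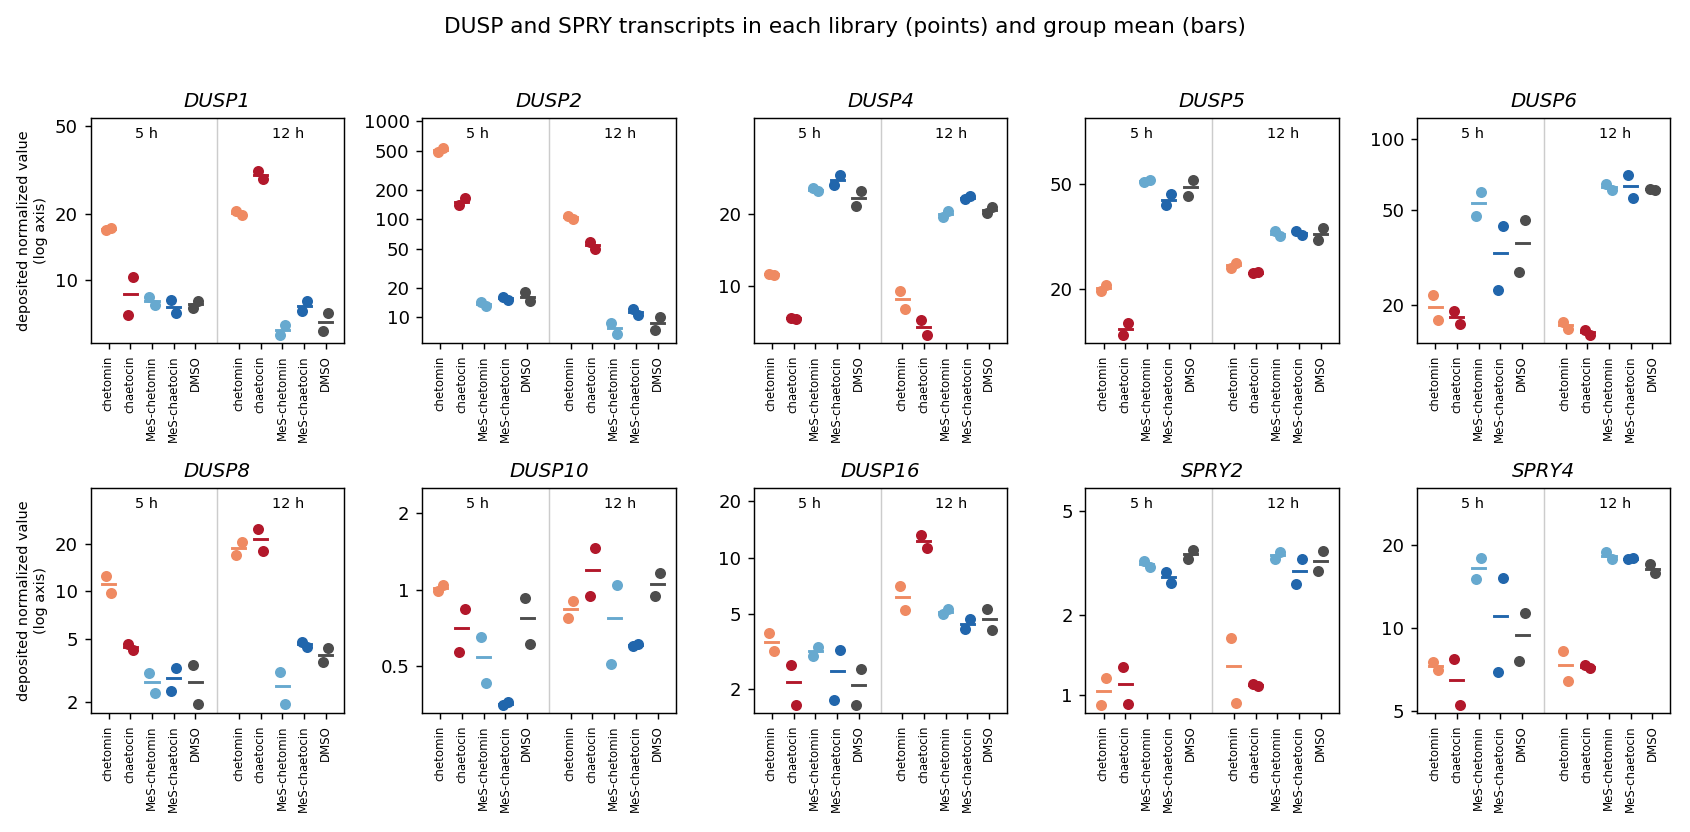
Deposited normalized value of each member (log axis) in each of the 20 libraries, as points, with group means as bars, by compound at 5 h and 12 h. DUSP2 reached 480.4 and 539 with chetomin at 5 h against 18.0 and 14.5 with DMSO, and DUSP4 lay at 11.2 or below in all 8 libraries of the intact compounds.

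DUSP1 (MKP-1), an immediate early gene whose product acts mainly on p38 and JNK, also stood higher. DUSP1 (ENSG00000120129, chr5:172768090-172771195) had values of 16.9 and 17.2 with chetomin and 6.97 and 10.3 with chaetocin at 5 h, against 7.46 and 8.08 with DMSO. The 12 h libraries held 20.5 and 19.8 with chetomin and 31.1 and 28.8 with chaetocin, against 5.87 and 7.08 with DMSO. The chaetocin libraries spanned the DMSO values at 5 h and were the highest of all at 12 h. DUSP1 rose with chetomin by 1.04 ± 0.21 at 5 h (adjusted p = 0.0155) and by 1.50 ± 0.22 at 12 h (adjusted p = 0.00203). With chaetocin the difference was 0.11 ± 0.27 at 5 h (adjusted p = 0.834) and DUSP1 rose by 2.05 ± 0.19 at 12 h (adjusted p = 0.000729). The chaetocin effect was thus larger at 12 h than at 5 h, by 1.94 ± 0.32 (adjusted p = 0.0105, where 4.32% of 14072 genes were called, 3.43% higher and 0.895% lower), whereas the chetomin effect differed by 0.46 ± 0.27 (adjusted p = 0.365). Without chaetocin replicate 1 at 12 h the rise at 12 h had an adjusted p of 0.0547 and the difference between times one of 0.0618, and without either chetomin library the chetomin calls were lost at both times (adjusted p from 0.106 to 0.248). Chetomin minus chaetocin was 0.93 ± 0.22 at 5 h (95% interval 0.42 to 1.43, adjusted p = 0.132) and -0.55 ± 0.17 at 12 h (-0.93 to -0.17, adjusted p = 0.104), neither called. The 12 h value was called when 1 DMSO library was left out, with adjusted p-values of 0.0341 and 0.0359 without replicate 1 and replicate 2, and with a spread shared over all groups of that time (0.0424).

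DUSP4 (MKP-2) and DUSP5, both nuclear and the second specific for ERK, went the other way. DUSP4 (ENSG00000120875) had values of 11.2 and 11.1 with chetomin and 7.36 and 7.30 with chaetocin at 5 h, against 21.6 and 24.8 with DMSO. At 12 h it had 9.53 and 8.04 with chetomin and 7.22 and 6.24 with chaetocin, against 20.2 and 21.3 with DMSO. The groups did not overlap at either time. With chaetocin the mean lay 68.4% below DMSO at 5 h and 67.6% below at 12 h. DUSP4 fell by 0.99 ± 0.19 with chetomin (adjusted p = 0.0148) and by 1.54 ± 0.21 with chaetocin (adjusted p = 0.00981) at 5 h. At 12 h it fell by 1.16 ± 0.21 with chetomin (adjusted p = 0.0052) and by 1.49 ± 0.19 with chaetocin (adjusted p = 0.00177). Its effect did not differ detectably between times, by -0.17 ± 0.26 with chetomin and 0.04 ± 0.27 with chaetocin, with intervals of -0.75 to 0.41 and -0.56 to 0.65. Each of the 4 calls was lost without either library of the compound, with adjusted p-values from 0.0553 to 0.199.

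DUSP5 (ENSG00000138166, chr10:110497838-110511544) had values of 19.6 and 20.7 with chetomin and 13.3 and 14.8 with chaetocin at 5 h, against 45.1 and 51.9 with DMSO. Its values at 12 h were 24.0 and 24.9 with chetomin and 22.9 and 23.1 with chaetocin, against 30.6 and 33.9 with DMSO. The gap was wide at 5 h and narrow at 12 h, and the groups did not overlap at either time. DUSP5 fell by 1.22 ± 0.17 with chetomin (adjusted p = 0.00431) and by 1.72 ± 0.18 with chaetocin (adjusted p = 0.00539) at 5 h. At 12 h the difference was -0.38 ± 0.18 with chetomin (adjusted p = 0.126), and DUSP5 fell by 0.47 ± 0.15 with chaetocin (adjusted p = 0.0444). That last call depends on the scale. Relative to the median of all genes the difference was -0.31, on the authors' CPM scale it was -0.21 (adjusted p = 0.323), and the authors' deposited table gives a log2 fold change of -0.11 with a q-value of 0.545. The chaetocin effect was -0.47 at 12 h and -1.72 at 5 h, a difference of 1.25 ± 0.24 (adjusted p = 0.0178). The corresponding difference for chetomin, 0.84 ± 0.23, was not called (adjusted p = 0.0979). At 5 h the chetomin call was lost without either chetomin library (adjusted p = 0.0754 and 0.0581), and at 12 h the chaetocin call without either chaetocin library (0.257 and 0.241) or with the replicate number as a block (0.127). The difference between times was lost without chaetocin replicate 1 at 5 h (0.0751), DMSO replicate 1 at 12 h (0.0517) or either chaetocin library at 12 h (0.089 and 0.0911).

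DUSP6 (MKP-3) is the cytoplasmic phosphatase specific for ERK and a classical transcript of ERK output. DUSP6 (ENSG00000139318, chr12:89347232-89353271) had values of 22.0 and 17.3 with chetomin and 18.9 and 16.6 with chaetocin at 5 h, against 27.6 and 45.4 with DMSO. By 12 h the values were 16.9 and 15.8 with chetomin and 15.7 and 14.9 with chaetocin, against 61.7 and 61.0 with DMSO. The libraries of the intact compounds varied little between times, while the DMSO libraries were higher and tighter at 12 h. At 12 h DUSP6 fell by 1.85 ± 0.17 with chetomin (adjusted p = 0.000306) and by 1.94 ± 0.14 with chaetocin (adjusted p = 0.000514), the mean lying 73.3% and 75.1% below DMSO. Both calls held without any 1 library, with adjusted p-values of at most 0.0438. At 5 h the differences of -0.83 ± 0.26 with chetomin (adjusted p = 0.0683) and -0.96 ± 0.26 with chaetocin (adjusted p = 0.0608) were not called. They were -1.18 and -1.31 without DMSO replicate 1, which had the lower value, and -0.48 and -0.61 without DMSO replicate 2. The authors' deposited table gives log2 fold changes of -0.88 and -0.97 with q-values of 2.36e-05 and 2.89e-06. With the replicate number as a block the 5 h differences were called (adjusted p = 0.00517 and 0.0378). The labels do not give that pairing. Deviations of same-numbered libraries from their group means correlated with those of DMSO at 0.043 for chetomin and -0.602 for chaetocin, so the block adds no firm support. The effect at 12 h minus that at 5 h was -1.02 ± 0.32 with chetomin (adjusted p = 0.13) and -0.98 ± 0.32 with chaetocin (adjusted p = 0.117), neither called. With 1 library left out these differences ran from -1.37 to -0.67 and from -1.33 to -0.63, largest in size without DMSO replicate 2 at 5 h. The MeS-chetomin libraries held 47.4 and 59.9 and the MeS-chaetocin libraries 23.1 and 42.9 at 5 h, so replicate 1 of DMSO and of MeS-chaetocin shared a low DUSP6. SPRY4 and DUSP16 were low in the same 2 libraries.

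An antisense gene, ENSG00000274021, overlaps DUSP6. It was at 0.28 and 0.04 with chetomin and 0.04 and 0 with chaetocin at 12 h, against 1.22 and 0.92 with DMSO, and fell by 0.84 ± 0.16 (adjusted p = 0.00533) and 1.02 ± 0.13 (adjusted p = 0.00171). The library kit marks strand, but how strand was treated in counting is not stated in the labels or headers. Reads in the stretch that the 2 genes share therefore cannot be told apart.

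The phosphatases directed at the stress kinases JNK and p38 divided as well. DUSP8 (ENSG00000184545, chr11:1554044-1571920), which inactivates JNK and p38, had values of 12.6 and 9.76 with chetomin and 4.65 and 4.25 with chaetocin at 5 h, against 3.40 and 1.94 with DMSO. At 12 h it had 17.1 and 20.7 with chetomin and 24.8 and 18.0 with chaetocin, against 3.57 and 4.38 with DMSO. No library of an intact compound overlapped DMSO, and the chaetocin libraries at 5 h lay closest to it. DUSP8 rose with chetomin by 1.75 ± 0.29 at 5 h (adjusted p = 0.00819) and by 2.00 ± 0.24 at 12 h (adjusted p = 0.000902). With chaetocin the difference was 0.60 ± 0.29 at 5 h (adjusted p = 0.239) and DUSP8 rose by 2.16 ± 0.23 at 12 h (adjusted p = 0.00115). The chaetocin effect was larger at 12 h than at 5 h by 1.56 ± 0.38 (adjusted p = 0.0488), a call lost without any 1 of 7 libraries (adjusted p from 0.0925 to 0.201), DMSO replicate 2 at 5 h being the exception. It was also lost with the replicate number as a block (0.0784) and with a pseudocount of 0.1 (0.0962). The rise at 12 h was also lost without chaetocin replicate 1 (0.0633), and each chetomin call without either chetomin library (0.0669 to 0.132). Chetomin minus chaetocin was 1.15 ± 0.26 at 5 h (95% interval 0.54 to 1.76, adjusted p = 0.127), called only without DMSO replicate 1 (adjusted p = 0.0482), and -0.16 ± 0.22 at 12 h (-0.65 to 0.33, adjusted p = 0.721).

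The authors' deposited table gives log2 fold changes for DUSP8 that are larger than these differences of log2(value + 1). The deposited values were 2.64 with chetomin and 1.77 with chaetocin at 5 h, and 2.68 and 3.34 at 12 h, with a q-value of 1.08e-10 for chaetocin at 5 h. Part of the gap lies in the scale, which understates a fold at low values. With a pseudocount of 0.1 the differences at 5 h were 2.07 with chetomin and 0.77 with chaetocin. The ratio of mean values to DMSO, with no pseudocount, was 4.19 and 1.67. The authors' mean CPM was 38.2 and 21.0, against 6.21 with DMSO. What else sets the per-library values and the authors' CPM apart was not tested. An antisense gene, KRTAP5-AS1, overlaps DUSP8 on the opposite strand. It had values of 2.35 and 1.98 with chetomin and 0.03 and 0.51 with chaetocin at 5 h, against 0 and 0.03 with DMSO. The 12 h libraries held 4.30 and 4.24 with chetomin and 5.73 and 4.80 with chaetocin, and KRTAP5-AS1 was listed at 0 in both DMSO libraries. KRTAP5-AS1 was called higher with chetomin at 5 h (difference 1.64 ± 0.16, adjusted p = 0.00117) and with chetomin and chaetocin at 12 h (2.40 ± 0.17, adjusted p = 0.00012, and 2.64 ± 0.17, adjusted p = 0.00042). It followed DUSP8 in time and compound, and as for DUSP6 the reads in the stretch that the pair shares cannot be told apart.

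**Figure D3:**
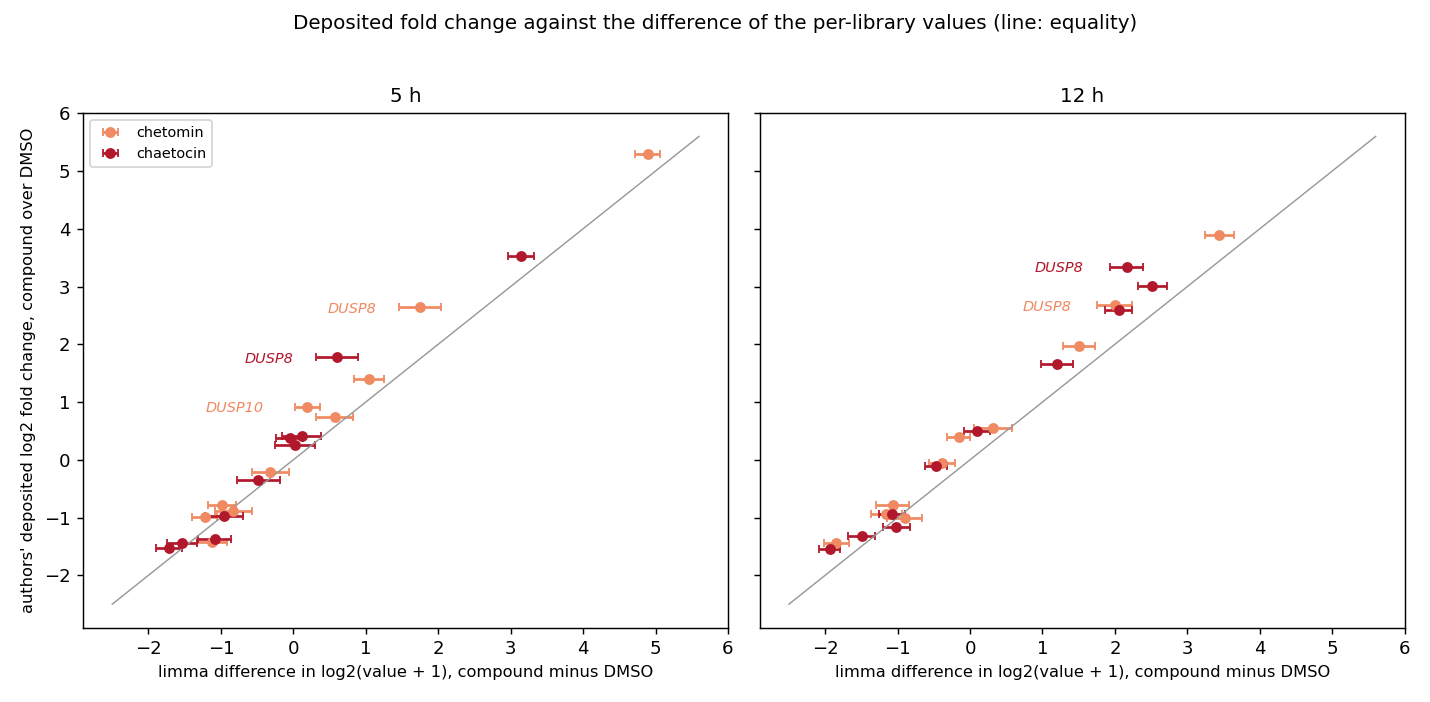
Authors' deposited log2 fold change (compound over DMSO) against the limma difference of log2(value + 1) with its standard error, for the 10 members with chetomin and chaetocin at 5 h (left) and 12 h (right); names mark members farther than 0.6 from each other on the 2 scales. DUSP8 lies above the line of equality in all 4 comparisons, for example at 1.77 against 0.60 with chaetocin at 5 h. At its low values the log2(value + 1) scale understates a fold, which makes up only part of this gap. With a pseudocount of 0.1 the chaetocin difference at 5 h was 0.77.

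DUSP16 (MKP-7), which is selective for JNK and p38, was called against DMSO with chaetocin at 12 h. DUSP16 (ENSG00000111266, chr12:12474210-12562383) had values of 3.96 and 3.20 with chetomin and 2.69 and 1.66 with chaetocin at 5 h, against 1.66 and 2.55 with DMSO. At 12 h the values stood at 7.10 and 5.24 with chetomin and 13.1 and 11.3 with chaetocin, against 5.34 and 4.14 with DMSO. The chaetocin libraries at 12 h lay well clear of DMSO, the chetomin libraries at 5 h lay above it by less, and one chetomin library at 12 h fell within the DMSO range. DUSP16 rose by 1.21 ± 0.22 with chaetocin at 12 h (adjusted p = 0.00649), a call lost without either chaetocin library (adjusted p = 0.14 and 0.111). With chetomin at 12 h the difference was 0.32 ± 0.27 (adjusted p = 0.374). Chetomin minus chaetocin at 12 h was -0.89 ± 0.23 (95% interval -1.40 to -0.37, adjusted p = 0.0626), which became called without DMSO replicate 1 or replicate 2 (0.0323 and 0.0319), with median-of-ratios scaling (0.0431) and with a shared spread (0.0199). At 5 h the differences were 0.57 ± 0.26 with chetomin (adjusted p = 0.173) and 0.03 ± 0.28 with chaetocin (adjusted p = 0.961). In the authors' deposited table, chetomin had log2 fold changes of 0.74 at 5 h and 0.55 at 12 h for DUSP16, with q-values of 0.0175 and 0.00163. The chaetocin effect at 12 h minus that at 5 h was 1.18 ± 0.37 and was not called (adjusted p = 0.108), though it was with a pseudocount of 5 (0.0444), median-of-ratios scaling (0.0452) or a shared spread (0.0412).

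DUSP10 (MKP-5), also directed at JNK and p38, had low values in every library, like SPRY2. DUSP10 (ENSG00000143507, chr1:221701424-221742176) had values of 0.99 and 1.04 with chetomin and 0.57 and 0.84 with chaetocin at 5 h, against 0.93 and 0.61 with DMSO. At 12 h it had 0.77 and 0.90 with chetomin and 0.94 and 1.46 with chaetocin, against 0.94 and 1.16 with DMSO. The chaetocin and DMSO libraries overlapped at both times. The differences from DMSO ran from -0.16 ± 0.16 with chetomin at 12 h to 0.19 ± 0.17 with chetomin at 5 h, with 95% intervals that together span -0.52 to 0.59. At values near 1 this scale understates a fold: with a pseudocount of 0.1 the chetomin difference at 5 h was 0.38 (adjusted p = 0.544). The ratio of mean values to DMSO was 1.32. The authors' deposited table gives a larger change, a log2 fold change of 0.92 with a q-value of 0.139, and what sets it apart was not tested. The intervals are therefore no limit on the fold change of DUSP10.

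Both Sprouty transcripts stood lower with the intact compounds. SPRY2 (ENSG00000136158, chr13:80335976-80340951), which blocks receptor signalling to RAS and RAF, had values of 0.91 and 1.16 with chetomin and 1.27 and 0.92 with chaetocin at 5 h, against 3.29 and 3.56 with DMSO. By 12 h the values were 1.64 and 0.93 with chetomin and 1.10 and 1.08 with chaetocin, against 2.95 and 3.52 with DMSO. Every library of an intact compound lay below every DMSO library. SPRY2 fell by 1.12 ± 0.21 with chetomin (adjusted p = 0.0132) and by 1.08 ± 0.23 with chaetocin (adjusted p = 0.0289) at 5 h, and by 0.90 ± 0.24 (adjusted p = 0.0199) and 1.02 ± 0.18 (adjusted p = 0.00601) at 12 h. At these low values the log2(value + 1) scale understates the change, and the mean lay 69.8% and 68% below DMSO at 5 h. All 4 calls were lost without either library of the compound (adjusted p from 0.0913 to 0.229). The chetomin call at 12 h was also lost without DMSO replicate 2 at 12 h (0.0759) and, by a small margin, on the authors' CPM scale (0.0505).

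SPRY4 (ENSG00000187678, chr5:142310427-142326455), a relative of SPRY2 with the same kind of action, was called at 12 h and not at 5 h. It had values of 7.51 and 7.04 with chetomin and 7.73 and 5.25 with chaetocin at 5 h, against 7.63 and 11.3 with DMSO. Values at 12 h were 8.27 and 6.41 with chetomin and 7.34 and 7.15 with chaetocin, against 17.0 and 15.8 with DMSO. The chaetocin and DMSO libraries overlapped at 5 h, and the groups were well apart at 12 h. SPRY4 fell by 1.07 ± 0.23 with chetomin (adjusted p = 0.00972) and by 1.08 ± 0.18 with chaetocin (adjusted p = 0.00506) at 12 h, calls that were lost without either library of the compound (adjusted p from 0.108 to 0.18). At 5 h the differences of -0.32 ± 0.26 and -0.48 ± 0.30 were not called (adjusted p = 0.449 and 0.356). As for DUSP6, the compound libraries stayed at one level between times and the DMSO libraries were higher at 12 h. The difference between times for SPRY4, -0.75 ± 0.33 with chetomin and -0.60 ± 0.36 with chaetocin, was not called (adjusted p = 0.235 and 0.366).

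**Figure D4:**
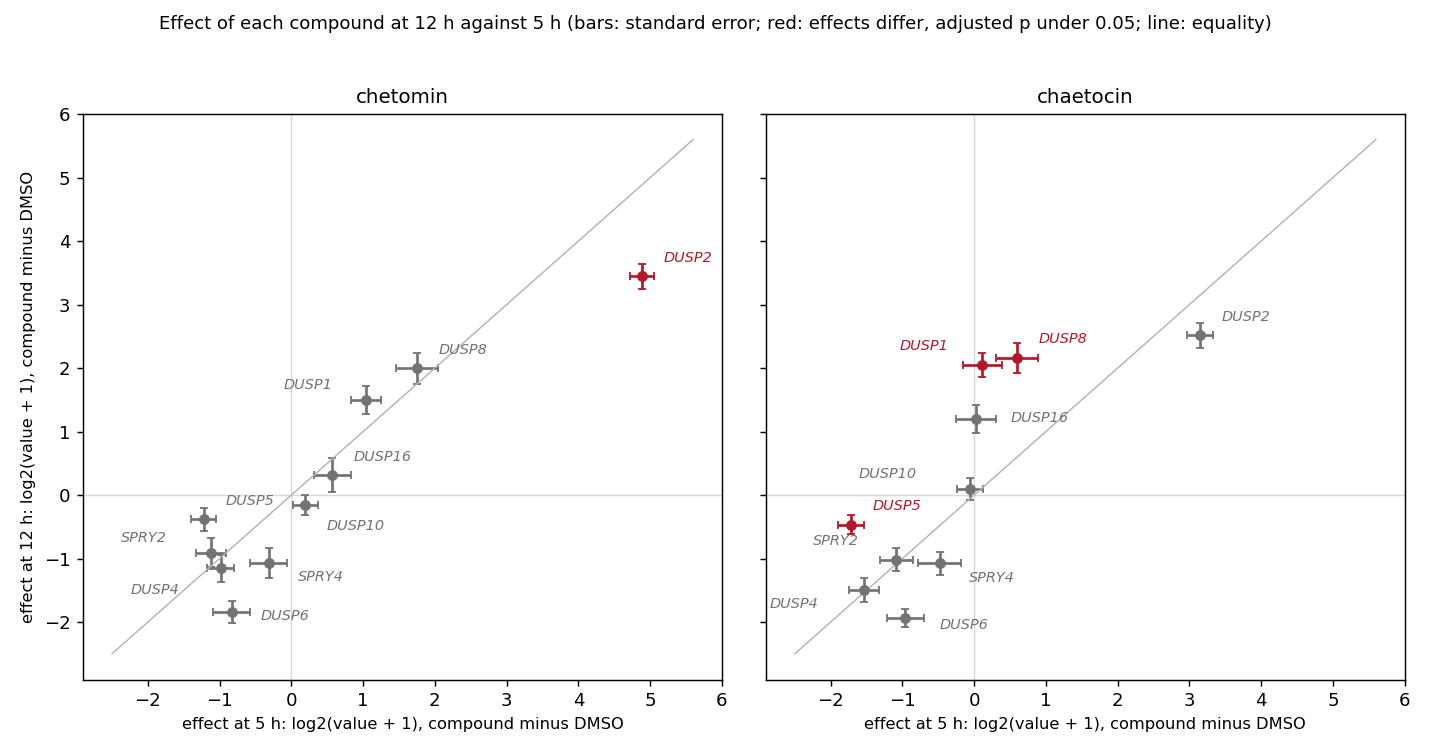
Effect at 12 h against effect at 5 h for each member, as log2(value + 1) of compound minus DMSO with standard errors, with chetomin (left) and chaetocin (right). DUSP1, DUSP8 and DUSP5 with chaetocin lie above the line of equality and DUSP2 with chetomin below it, and these 4 differences between times, 1.94, 1.56, 1.25 and -1.45, had an adjusted p under 0.05.

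No member was called against DMSO with MeS-chetomin or MeS-chaetocin at either time by limma, and none had a q-value under 0.05 in the authors' deposited table, where 0.162% and 0.0494% of genes did at 5 h and 0.0658% and 0.243% at 12 h. The share of all genes called was 0.141% for MeS-chetomin at 5 h, 0.0776% higher and 0.0635% lower, and 0 in the other 3 comparisons. At an unadjusted p under 0.05, 1 member passed with MeS-chetomin at 5 h, SPRY4 with 0.76 ± 0.25 (adjusted p = 0.27), and 0 with MeS-chaetocin, where 16.1% and 0.741% of all genes passed. At 12 h 0 members passed with MeS-chetomin and 1 with MeS-chaetocin, DUSP10 with -0.35 ± 0.13 (adjusted p = 0.786), where 2.74% and 4.97% of all genes passed. With the replicate number as a block, 1 member was called higher with MeS-chetomin at 5 h. Some means lay away from DMSO all the same. With MeS-chetomin at 5 h that of SPRY4 was 1.74 times, that of DUSP16 1.52 times and that of DUSP6 1.47 times the DMSO mean, and with MeS-chaetocin at 5 h that of DUSP10 was 0.461 times. The size of the MeS-chetomin ratios depends in part on DMSO replicate 1, which lay below replicate 2 for SPRY4, DUSP16 and DUSP6 alike. Both MeS-chetomin libraries also lay above DMSO replicate 2 for these genes, at 15.01 and 17.95 against 11.32 for SPRY4. The median difference of all genes with MeS-chetomin at 5 h was 0.11. The authors' deposited log2 fold changes there were 0.45 for SPRY4, 0.50 for DUSP16 and 0.20 for DUSP6. DUSP2 had 14.3 and 13.1 with MeS-chetomin and 16.1 and 15.2 with MeS-chaetocin at 5 h, against 18.0 and 14.5 with DMSO. Its difference was -0.23 ± 0.22 (95% interval -0.72 to 0.27) with MeS-chetomin and -0.05 ± 0.26 (-0.70 to 0.61) with MeS-chaetocin. These intervals leave out changes of DUSP2 as large as those with the intact compounds. They do not show that the analogs had no effect. Over the 10 members the intervals were widest at 5 h, where those of SPRY4 reached 1.34 with MeS-chetomin and -0.95 to 1.23 with MeS-chaetocin. At 12 h DUSP6 differed by 0.02 ± 0.11 with MeS-chetomin and 0.04 ± 0.16 with MeS-chaetocin, with intervals of -0.26 to 0.31 and -0.35 to 0.42.

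Each intact compound was also set directly against its analog at the same dose and time. Between chetomin and MeS-chetomin, 3 members were higher and 5 lower with chetomin at 5 h (32.8% of 14222 genes called, 8.97% higher and 23.9% lower), and again 3 higher and 5 lower at 12 h (47.4% of 15381 genes, 18.8% higher and 28.6% lower). DUSP2 differed by 5.12 ± 0.15 at 5 h (adjusted p = 2.65e-06) and 3.59 ± 0.19 at 12 h (adjusted p = 3.66e-05). DUSP6, not called against DMSO at 5 h, was lower with chetomin than with MeS-chetomin by -1.40 ± 0.25 (adjusted p = 0.00485), and SPRY4 by -1.07 ± 0.22 (adjusted p = 0.00938). Part of both gaps lay in the analog. Against DMSO, DUSP6 differed by 0.58 with MeS-chetomin and -0.83 with chetomin, and SPRY4 by 0.76 and -0.32, none of them called. The median difference of all genes in this contrast was -0.19. Between chaetocin and MeS-chaetocin, 1 member was higher and 2 lower with chaetocin at 5 h (6.56% of 14221 genes called, 3.11% higher and 3.45% lower), and 5 were higher and 5 lower at 12 h (53.8% of 15380 genes, 22.2% higher and 31.6% lower). The split of calls over all genes depends on the scale: on the authors' CPM scale the share that were higher was 59.6% in place of 27.3% at 5 h and 62.7% in place of 39.6% at 12 h for chetomin against its analog, and 62.4% in place of 47.4% and 59.4% in place of 41.2% for chaetocin. The 5 h contrast carries the uneven MeS-chaetocin replicates, and DUSP6 differed there by -0.80 ± 0.35 (95% interval -1.65 to 0.05, adjusted p = 0.247). At 12 h DUSP10 was higher with chaetocin than with MeS-chaetocin, by 0.44 ± 0.15 (adjusted p = 0.0459), the smallest of the 10 differences there in size. Against DMSO, DUSP10 differed by 0.09 with chaetocin and by -0.35 with MeS-chaetocin, neither called. Between MeS-chetomin and MeS-chaetocin no member was called at either time (0 and 0.00656% of genes), with 0 members at an unadjusted p under 0.05 at 5 h and 1, DUSP8, at 12 h (-0.70 ± 0.22, adjusted p = 0.139), against 3.9% and 27.2% of all genes. Leaving out 1 library left 5 to 8 calls for chetomin against MeS-chetomin and 1 to 3 for chaetocin against MeS-chaetocin at 5 h, the low ends being reached without either library of the intact compound.

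Other genes around these inhibitors were counted in 5 lists, to be read against the shares of all genes called: 15.7% with chetomin and 11.1% with chaetocin at 5 h, and 35.8% and 47% at 12 h. None of 18 components of the ERK cascade, from adaptors and exchange factors such as SOS1 down to the RSK kinases, was called at 5 h with chetomin or chaetocin. At 12 h, 7 fell with chetomin and 9 with chaetocin and none rose, with a list median of -0.47 for both, against -0.15 and -0.16 over all genes. All of these calls were lower, where 20.2% and 26.8% of all genes were called lower with chetomin and chaetocin at 12 h. Among those that fell were KSR1, a scaffold of the cascade, and RPS6KA1, which encodes the kinase RSK1. RPS6KA1 averaged 7.07 ± 0.474 with chetomin and 7.41 ± 0.566 with chaetocin, against 18.5 ± 0.396 with DMSO (SD, n = 2 libraries each), differences of -1.28 ± 0.22 (limma adjusted p = 0.00364) and -1.22 ± 0.18 (limma adjusted p = 0.00327).

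Of 14 listed genes of the JNK and p38 cascades, 1 fell with each compound at 5 h, MAPK14, which encodes p38α. It averaged 6.64 ± 0.014 with chetomin and 6.34 ± 0.474 with chaetocin, against 16.1 ± 3.80 with DMSO. At 12 h, 6 fell and none rose with chetomin, and 9 fell and 1 rose with chaetocin, with medians of -0.60 and -0.63, against -0.15 and -0.16 over all genes, of which 20.2% and 26.8% were called lower. Others of the list that fell were MAP3K5 (ASK1, -1.04) and MAPK12 (p38γ, -0.84) with chetomin, and the p38 target MAPKAPK2 (-0.96) and MAPK13 (p38δ, -0.93) with chaetocin. The MAPK12 call was lost on the authors' CPM scale (-0.60, adjusted p = 0.0956). The gene that rose, MAP3K11, which encodes the JNK activator MLK3, averaged 73.1 ± 0.651 with chaetocin and 34.1 ± 5.77 with DMSO, a difference of 1.09 ± 0.16 (adjusted p = 0.00319).

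Of the 14 output genes of ERK signalling some rose and some fell. With chetomin 4 rose and 3 fell at 5 h, and 4 rose and 6 fell at 12 h, while with chaetocin 3 rose and 4 fell at 5 h, and 4 rose and 9 fell at 12 h. Over all genes 15.7% and 11.1% were called with chetomin and chaetocin at 5 h, and 35.8% and 47% at 12 h. The early transcription factor EGR1 averaged 780.3 ± 36.9 with chetomin and 456 ± 63.7 with chaetocin at 5 h, against 34.5 ± 5.83 with DMSO. FOS, another early factor, rose by 3.33 ± 0.20 and 2.71 ± 0.22 at 5 h (adjusted p = 0.000197 and 0.00229). In contrast MYC averaged 39.0 ± 1.15 with chetomin and 23.1 ± 1.01 with chaetocin, against 209 ± 15.2 with DMSO, and PHLDA1 fell by 1.22 ± 0.17 and 2.44 ± 0.18 (adjusted p = 0.00401 and 0.00223). ETV5, an ETS factor used like DUSP6 as an ERK readout, fell by 1.18 ± 0.22 and 1.14 ± 0.22 at 5 h (adjusted p = 0.0128 and 0.0218). The receptor EPHA4 rose at 5 h by 0.92 with chetomin and 0.95 with chaetocin. At 12 h FOSL1, an AP-1 subunit, rose by 1.59 with chaetocin, and the ETS factor ETV1 fell by 1.75 with chetomin and 1.62 with chaetocin.

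Among 12 listed dual-specificity phosphatases outside the 10, 5 fell and 1 rose with chetomin at 5 h and 6 fell with chaetocin, and at 12 h 4 fell and 1 rose with chetomin and 5 fell and 1 rose with chaetocin. Of all genes, 8.71% and 6.53% were called lower with chetomin and chaetocin at 5 h, and 20.2% and 26.8% at 12 h. DUSP7, the closest relative of DUSP6 and likewise cytoplasmic and directed at ERK, averaged 2.25 ± 0.191 with chetomin and 1.56 ± 0.064 with chaetocin at 5 h, against 10.0 ± 1.31 with DMSO. Its differences were -1.75 ± 0.25 (adjusted p = 0.00444) and -2.10 ± 0.26 (adjusted p = 0.00746). DUSP3 (VHR) fell in all 4 comparisons, by 1.05 to 1.27. DUSP11 fell with chaetocin at both times, by 0.99 at 12 h, and DUSP12 fell at 12 h by 0.90 with chetomin and 1.40 with chaetocin. The gene that rose was DUSP28, an atypical member, which at 12 h averaged 8.43 ± 0.962 with chetomin and 14.3 ± 1.51 with chaetocin, against 2.33 ± 0.792 with DMSO. Calls lost on the authors' CPM scale were STYX with chetomin at 5 h (adjusted p = 0.0593) and DUSP7 with chetomin at 12 h (0.055).

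Of 12 listed other negative regulators of RAS and receptor signalling, 1 rose at 5 h with each compound and none fell, and at 12 h 5 fell with chetomin and 7 with chaetocin. Of all genes, 7.02% and 4.56% were called higher with chetomin and chaetocin at 5 h, and 20.2% and 26.8% lower at 12 h. The one that rose was SPRED3, a relative of the Sproutys that acts on RAS, at 0.745 ± 0.191 with chetomin and 2.07 ± 0.948 with chaetocin, against 0.065 ± 0.035 with DMSO. These values are very low and the chaetocin libraries differed widely, so the size of the rise is uncertain. At 12 h RASA1, a GTPase-activating protein that turns RAS off, averaged 3.05 ± 0.078 with chetomin and 1.65 ± 0.156 with chaetocin, against 10.6 ± 3.04 with DMSO. SPRED2 fell by 1.22 ± 0.29 (adjusted p = 0.0144) and 1.19 ± 0.18 (adjusted p = 0.00313). SPRY1 fell by 1.07 with chetomin and SPRED1 by 1.31 with chaetocin. SPRED1 and SPRED2 are also in the list of ERK output genes, so their calls are counted in both lists.

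Likeness between members was described over the 10 group means of log2(value + 1). These correlations describe 10 points that share compounds and DMSO libraries. DUSP1 and DUSP8 had a Pearson r of 0.957 and DUSP6 and SPRY4 one of 0.972, while DUSP2 and SPRY2 had -0.919. Among 9068 genes listed at both times with a mean value of at least 5, those most like DUSP2 were DNAJB1, which encodes an HSP40 co-chaperone (r = 0.976), TMEM79 (0.975) and JUN, an AP-1 subunit (0.972). Those most like DUSP6 were TNFRSF25 (0.992), ENSG00000263001 (GTF2I, 0.991) and GGA3 (0.989). DUSP1 was most like AFG3L1P, FAM32A and VGF (0.979 to 0.971), and DUSP8 most like ZMAT5, EXD3 and CYP4F11 (0.984 to 0.976). For DUSP4 they were FJX1, GEMIN7 and RITA1 (0.989 to 0.984), for DUSP5 RRP8, BCAR3 and HOXA11 (0.963 to 0.952), and for DUSP16 CTBP1-AS2, CLIP1 and PCNT (0.973 to 0.967). SPRY2 was most like FANCC, MAP3K4 and RSBN1L (0.988 to 0.987), and SPRY4 most like IQSEC1, TTC31 and CEP170 (0.992 to 0.991).

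Short-lived messenger RNAs often carry AU-rich nonamers downstream of the coding sequence, and the sites of DUSP1 and DUSP8, which rose together, are shown. The nonamer TTATTTATT, in capitals, stood at 2 places in the DUSP1 transcript ENST00000239223.3 and at 1 in the DUSP8 transcript ENST00000397374.7 (GENCODE 29), given here with 8 bases on each side.
DUSP1, bases 1448 to 1456: gctggtccTTATTTATTtaacttca
DUSP1, bases 1716 to 1724: aatataccTTATTTATTtttgtgta
DUSP8, bases 2132 to 2140: tcgattttTTATTTATTtaagctgt
DUSP4, which fell, had 1 such site as well, and the other 7 members, DUSP2 among them, had none, against 8.295% of 13105 coding genes listed that had at least 1. The share depends on length: among coding genes with a similar length downstream of the coding sequence it was 4.11% for DUSP1, 12.0% for DUSP8 and 17.3% for DUSP4.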

How the data were processed

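The deposited tables, 1 per compound and time (8 in all), cover 20 libraries of HCT116 cells in 10 groups of 2. The submitters' processing notes name STAR 2.5.2b, RSEM 1.3.3, edgeR and the build GRCh38. Alignment parameters, gene annotation and the handling of strand are not given in the sources used. Per the labels, libraries of poly(A) RNA started from 250 ng (RIN 7 or above) and aimed at 50 M reads each. Per the file headers, each table holds a value per library, a mean CPM per group, a log2 fold change, a p-value and a q-value. The per-library values are a normalized signal whose unit the deposited headers do not name; they are corrected for transcript length (the mean CPM over the value rose with length, Spearman rho 0.769 across 11503 genes) and sum to between 875371 and 1170802 per library. The deposited log2 fold changes, p-values and q-values are the authors' and are named as such where printed.

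The log2(value + 1) values were fitted with limma 3.58.1 (trend) in R 4.3.3 over all genes listed at a time, two-sided, with Benjamini-Hochberg adjustment over all genes of a comparison and calls under 0.05. No filter was added to that of the deposited tables. Comparisons with DMSO used 4 libraries, direct comparisons of compounds 6 (with DMSO) and comparisons of an effect between times 8. The smallest two-sided p of an exact permutation test is 0.333 for 2 libraries against 2, so calls rest on the spread limma pools over genes. The labels do not say whether replicates were separate cultures, so p-values measure the spread between these libraries. With 1 library left out, the lone library of an arm is assumed to vary like the others. Alternatives were pseudocounts of 0.1 and 5, a mean value of at least 1, median-of-ratios scaling, the authors' CPM scale, a spread shared over all groups of a time, the replicate number as a block and leaving out each library.

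The members, lists and tests were chosen with earlier results of these data known. Named are all 10 members, up to 3 called genes each way per list and comparison, and the 3 genes most like each called member. Promoter windows came from RefSeq (GRCh38.p14) for 8 of the 10 members, and gene positions and transcripts from GENCODE 29 (GRCh38). One gene that the rule for named genes takes in is not reported here.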

Additional observations from a re-analysis of the deposited data

Results flagged for a closer look

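Effects that differed between times, by a test of the difference itself, were found for 4 pairs of member and compound. With chaetocin the effect on DUSP1 was 2.05 at 12 h and 0.11 at 5 h, a difference of 1.94 (limma adjusted p = 0.0105). For DUSP5 it was -0.47 at 12 h and -1.72 at 5 h, a difference of 1.25 (limma adjusted p = 0.0178), and for DUSP8 it was 2.16 at 12 h and 0.60 at 5 h, a difference of 1.56 (limma adjusted p = 0.0488). With chetomin the effect on DUSP2 was 3.44 at 12 h and 4.89 at 5 h, a difference of -1.45 (limma adjusted p = 0.0473). All are differences in log2(value + 1) over 8 libraries. With 1 library left out they ran from 1.69 to 2.19 for DUSP1, from 1.15 to 1.35 for DUSP5, from 1.27 to 1.85 for DUSP8 and from -1.64 to -1.26 for DUSP2. The DUSP2 call was lost with a pseudocount of 0.1 (limma adjusted p = 0.0773), with both other scalings (0.0666 and 0.0574), with the replicate block (0.0827) and without any 1 of 6 libraries. The DUSP8 call was lost with a pseudocount of 0.1 (0.0962), with the replicate block (0.0784) and without any 1 of 7 libraries.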

How the results depend on the processing

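Of the counts of members called, 193 alternatives stayed within 1.5 times and 41 did not. The 193 include alternatives for the MeS compounds, against DMSO or each other, with no member called there or in the main fit. Of the single members, 897 kept direction and side of the threshold, 72 lost the call, 20 gained one and 25 turned sign. The cause of these changes was not tested, except that leaving out a library leaves fewer samples. The share of all genes called also moves with the setting and is not given for most of them. A changed count is therefore not a result about the members alone. With 1 library left out, the members called numbered 1 to 7 for chetomin and 2 to 5 for chaetocin at 5 h, 2 to 7 and 2 to 9 at 12 h, 0 to 2 and 0 to 3 for chetomin against chaetocin at 5 h and 12 h, 5 to 8 for chetomin against MeS-chetomin and 1 to 3 for chaetocin against MeS-chaetocin at 5 h, 0 to 2 for the chetomin effect between times and 0 to 4 for that of chaetocin. Chetomin against chaetocin at 12 h had 2 calls with median-of-ratios scaling and 3 with a shared spread, against 1. The chetomin effect between times had 0 with a pseudocount of 0.1, median-of-ratios scaling or the CPM scale and 2 with a shared spread, against 1. DUSP8 lost its chaetocin difference between times with a pseudocount of 0.1 (limma adjusted p = 0.0962).

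Sign changes concerned uncalled values. DUSP10 with chaetocin at 5 h was 0.0088 with median-of-ratios scaling and 0.0184 on the CPM scale, and SPRY4 for chetomin against chaetocin at 12 h was -0.0109 and -0.0092. With 1 library left out, values with chaetocin at 5 h ran from -0.14 to 0.37 for DUSP1, -0.18 to 0.0782 for DUSP10 and -0.21 to 0.26 for DUSP16, and at 12 h from -0.0775 to 0.27 for DUSP10. For chetomin against chaetocin they ran at 5 h from -0.0328 to 0.29 for DUSP6, -0.16 to 0.0812 for SPRY2 and -0.0778 to 0.40 for SPRY4, and at 12 h from -0.38 to 0.0575 for DUSP8, -0.11 to 0.34 for SPRY2 and -0.15 to 0.17 for SPRY4. Between times they ran with chaetocin from -0.0544 to 0.14 for DUSP4, -0.0249 to 0.32 for DUSP10 and -0.0533 to 0.19 for SPRY2, and with chetomin from -0.0417 to 0.54 for DUSP8 and -0.0078 to 0.44 for SPRY2.

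The labels do not say whether same-numbered replicates were made together. Deviations of libraries from their own group mean were compared between each compound group and DMSO at the same time. For same-numbered libraries they correlated over genes from -0.602 (chaetocin at 5 h) to 0.761 (MeS-chaetocin at 5 h). With the replicate block the members called were 7 for chetomin and 5 for chaetocin at 5 h, 7 and 8 at 12 h, 1 for MeS-chetomin at 5 h, against 0, and 0 for the chetomin effect between times, against 1. The block also ended the chaetocin calls of DUSP8 between times (limma adjusted p = 0.0784) and of DUSP5 at 12 h (0.127). DUSP6 at 5 h was called under the block with chetomin (limma adjusted p = 0.00517) and chaetocin (0.0378). A crossed pairing, chosen after seeing the data, gave 5 calls for chaetocin at 5 h, 9 at 12 h, and 0 for each MeS compound at 12 h. The shares of all genes called under the block and the crossed pairing are not given, so these counts do not set the members apart. No read counts were used, so limits from depth are not given.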
